A study of Homo sapiens with 29 samples.

Results

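Cholesterol and fatty acid synthesis was followed through 28 genes in 18 RNA sequencing libraries of IMR90 ER:RAS cells. The genes are all members of a list of sterol pathway enzymes, sterol-responsive regulators and fatty acid enzymes, taken by symbol from a count table of 28266 genes. All 28 had a row and all 28 passed the filter on low counts, among 13136 genes tested. By role they were 7 mevalonate enzymes, 11 enzymes of squalene and sterol synthesis, 4 regulators or carriers, and 6 fatty acid enzymes.

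IMR90 ER:RAS is an established line of human lung fibroblasts carrying a fusion of RAS with the estrogen receptor, which 4-hydroxytamoxifen (4OHT) switches on to drive the cells into oncogene-induced senescence. All libraries were labelled as this line and as day 7, so the fusion was shared by the groups as labelled. DMSO_siNT (6 libraries) received the solvent DMSO and a non-targeting siRNA, 4OHT_siNT (6) received 4OHT and a non-targeting siRNA, and 4OHT_siSMARCA4 (6) received 4OHT and an siRNA against SMARCA4, an ATPase of the SWI/SNF chromatin remodeling complex. The siRNAs in each group were numbered 2 and 4, and a library is named here by this number and its set, as in 4-2V. The set letters, V or VM, are not explained in the sources used here, nor do these say whether the libraries came from separate cultures, so p-values measure the spread between the libraries, which may be technical.

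All 6 4OHT_siNT libraries were of VM sets, whereas DMSO_siNT held 3 V and 3 VM libraries and 4OHT_siSMARCA4 held 3 V, 2 VM and 1 library whose column is named 1VM but matches no sample title, so that its set was not taken as given. Set letters and group were therefore partly tied, and the values within VM sets are given beside each comparison with 4OHT_siNT. A single library, DMSO_siNT 4-2V, stood apart from the others. It had the lowest total count of the 18 (9657309, against up to 18039313) and the most genes detected (17915), and held 29.5 CPM (read counts divided by the library total after TMM scaling, in the usual per-million unit) of ESR1 where the other 5 libraries of its group held 1034 to 1316. HRAS stood at 436 CPM in it, against 2165 to 2852 CPM in the other 5, so both genes of the fusion went against the label of this library. The comparisons of groups, of set letters and of siRNAs are given with and without it. The fits with siRNA 4 alone were made only with it. Without this library, ESR1 and HRAS were higher in 4OHT_siNT than in DMSO_siNT, by log2 fold changes of 1.13 ± 0.13 and 0.98 ± 0.12 (SE). They were also higher in 4OHT_siSMARCA4 than in DMSO_siNT, by 0.91 ± 0.13 and 0.81 ± 0.12. The part of these differences in the results below was not tested. SMARCA4 itself stood at 275 to 330 CPM in 4OHT_siNT and 70.4 to 141 CPM in 4OHT_siSMARCA4, a log2 fold change of -1.61 ± 0.14 (SE). All 8 fibroblast markers examined exceeded 1 CPM on average in every group. Their summed level ran from 11448 to 31306 CPM in DMSO_siNT, 14920 to 19815 CPM in 4OHT_siNT and 8627 to 12575 CPM in 4OHT_siSMARCA4, and its part in the results below was not tested. The 4 adipocyte markers together did not exceed 0.359 CPM in any library. The 3 hepatocyte markers summed to at most 7.05 CPM in DMSO_siNT (median 0.469 CPM). Their highest sums were 0.517 CPM in 4OHT_siNT and 0.346 CPM in 4OHT_siSMARCA4. The 5 epithelial markers summed to 103 to 144 CPM in DMSO_siNT, 62.4 to 78.9 CPM in 4OHT_siNT and 34.1 to 57.0 CPM in 4OHT_siSMARCA4. The 4 immune markers summed to 45.2 to 59.4, 47.9 to 69.5 and 48.1 to 74.9 CPM in these groups, and only CD68 exceeded 1 CPM on average. The 3 endothelial markers summed to at most 2.27, 5.12 and 5.69 CPM. In bulk RNA of this kind, fewer cells of a type and less RNA per cell cannot be told apart.

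Cells build cholesterol from acetyl-CoA. Mevalonate enzymes join acetyl units into isoprenoids, FDFT1 and SQLE condense and oxidize these into squalene epoxide, LSS closes the ring, and a chain of demethylases, reductases and isomerases turns lanosterol into cholesterol. The transcription factors SREBP2 and SREBP1, the products of SREBF2 and SREBF1, are held in the endoplasmic reticulum with INSIG1 when sterols are plentiful and released when sterols are scarce, after which they activate the sterol and fatty acid genes. ACACA and FASN build saturated fatty acids, ELOVL6 lengthens them, and SCD, FADS1 and FADS2 insert double bonds.

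Promoters of 4 genes are shown: CYP51A1, SREBF1 and INSIG1, on which the comparison of SMARCA4-depleted with control senescent cells turns, and SREBF2, which encodes the related factor SREBP2. The 250 bases before each annotated start are RefSeq sequence on build GRCh38.p14, written 5′ to 3′ on the strand of the gene, and capitals mark matches on either strand to TCACNCCAC (the core of a sterol regulatory element), to the CCAAT box, to the GC box with the letters GGGCGG, or to the E-box with the letters CACGTG. The windows are SREBF2 at chr22:41832855-41833104 (plus strand), INSIG1 at chr7:155297628-155297877 (plus), CYP51A1 at chr7:92134478-92134727 (minus) and SREBF1 at chr17:17836987-17837236 (minus).
SREBF2: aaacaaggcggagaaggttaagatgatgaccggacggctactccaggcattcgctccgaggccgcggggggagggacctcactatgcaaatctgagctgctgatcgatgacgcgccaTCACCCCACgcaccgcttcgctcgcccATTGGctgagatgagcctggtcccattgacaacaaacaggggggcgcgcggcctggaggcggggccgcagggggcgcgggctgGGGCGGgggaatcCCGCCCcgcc
INSIG1: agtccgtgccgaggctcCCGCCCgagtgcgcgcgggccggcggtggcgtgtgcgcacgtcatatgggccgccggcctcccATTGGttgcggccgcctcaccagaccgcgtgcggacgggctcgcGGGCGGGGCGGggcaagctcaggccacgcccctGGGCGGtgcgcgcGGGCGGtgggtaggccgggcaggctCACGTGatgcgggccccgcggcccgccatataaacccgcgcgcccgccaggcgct
CYP51A1: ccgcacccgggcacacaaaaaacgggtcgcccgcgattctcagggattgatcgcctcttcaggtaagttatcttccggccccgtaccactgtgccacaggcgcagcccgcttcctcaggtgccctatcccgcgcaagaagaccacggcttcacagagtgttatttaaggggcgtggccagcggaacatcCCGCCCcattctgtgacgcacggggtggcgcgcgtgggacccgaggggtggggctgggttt
SREBF1: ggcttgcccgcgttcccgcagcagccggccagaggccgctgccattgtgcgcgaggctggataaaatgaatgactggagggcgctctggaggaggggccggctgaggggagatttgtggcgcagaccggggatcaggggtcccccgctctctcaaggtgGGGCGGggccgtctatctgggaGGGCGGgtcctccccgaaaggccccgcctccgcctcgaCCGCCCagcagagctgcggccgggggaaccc
SREBF2 alone held the sterol element core, 133 bases before its start, and INSIG1 held the E-box. Both also held a CCAAT box, whereas SREBF1 and CYP51A1 held only GC boxes, with 3 and 1 matches. Over windows of 300 bases, from 250 before to 50 after the start, 24 of the 28 genes had an entry, 6 of them more than 1. CCAAT was found in 19 of the 24 genes (79.2%), against 43.2% of 10330 tested genes with an entry and 34.6% of 35116 windows in all. GGGCGG was found in 23 genes (95.8%), against 76.9% of tested genes and 44.95% of all windows. CACGTG occurred in 3 genes (LSS, SC5D and INSIG1) or 12.5%, against 12.55% of tested genes and 7.26% of all windows, and TCACNCCAC in 1 gene (4.17%), against 1.43% and 1.13%. Genes with several windows had more chances of a match, and a match is a description of letters only.

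Levels between genes were compared as CPM per kilobase of the canonical transcript in GENCODE release 44. In DMSO_siNT the highest of the 28 were FDFT1 (115 CPM per kb), which condenses farnesyl units into squalene, and FDPS (114 CPM per kb), which makes those units, and the lowest was HSD17B7 (3.46 CPM per kb), a sterol ketoreductase. FDFT1, FDPS and HSD17B7 kept these ranks in 4OHT_siNT, and in 4OHT_siSMARCA4 FDPS (145 CPM per kb) came before FDFT1 (108). FASN was twelfth in DMSO_siNT with 35.7 CPM per kb and the third highest in 4OHT_siNT with 65.5, while ACAT2 was the sixth with 58.3 and then sixteenth with 22.7. The plot of levels by library shows each gene on its own scale.

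**Figure D1:**
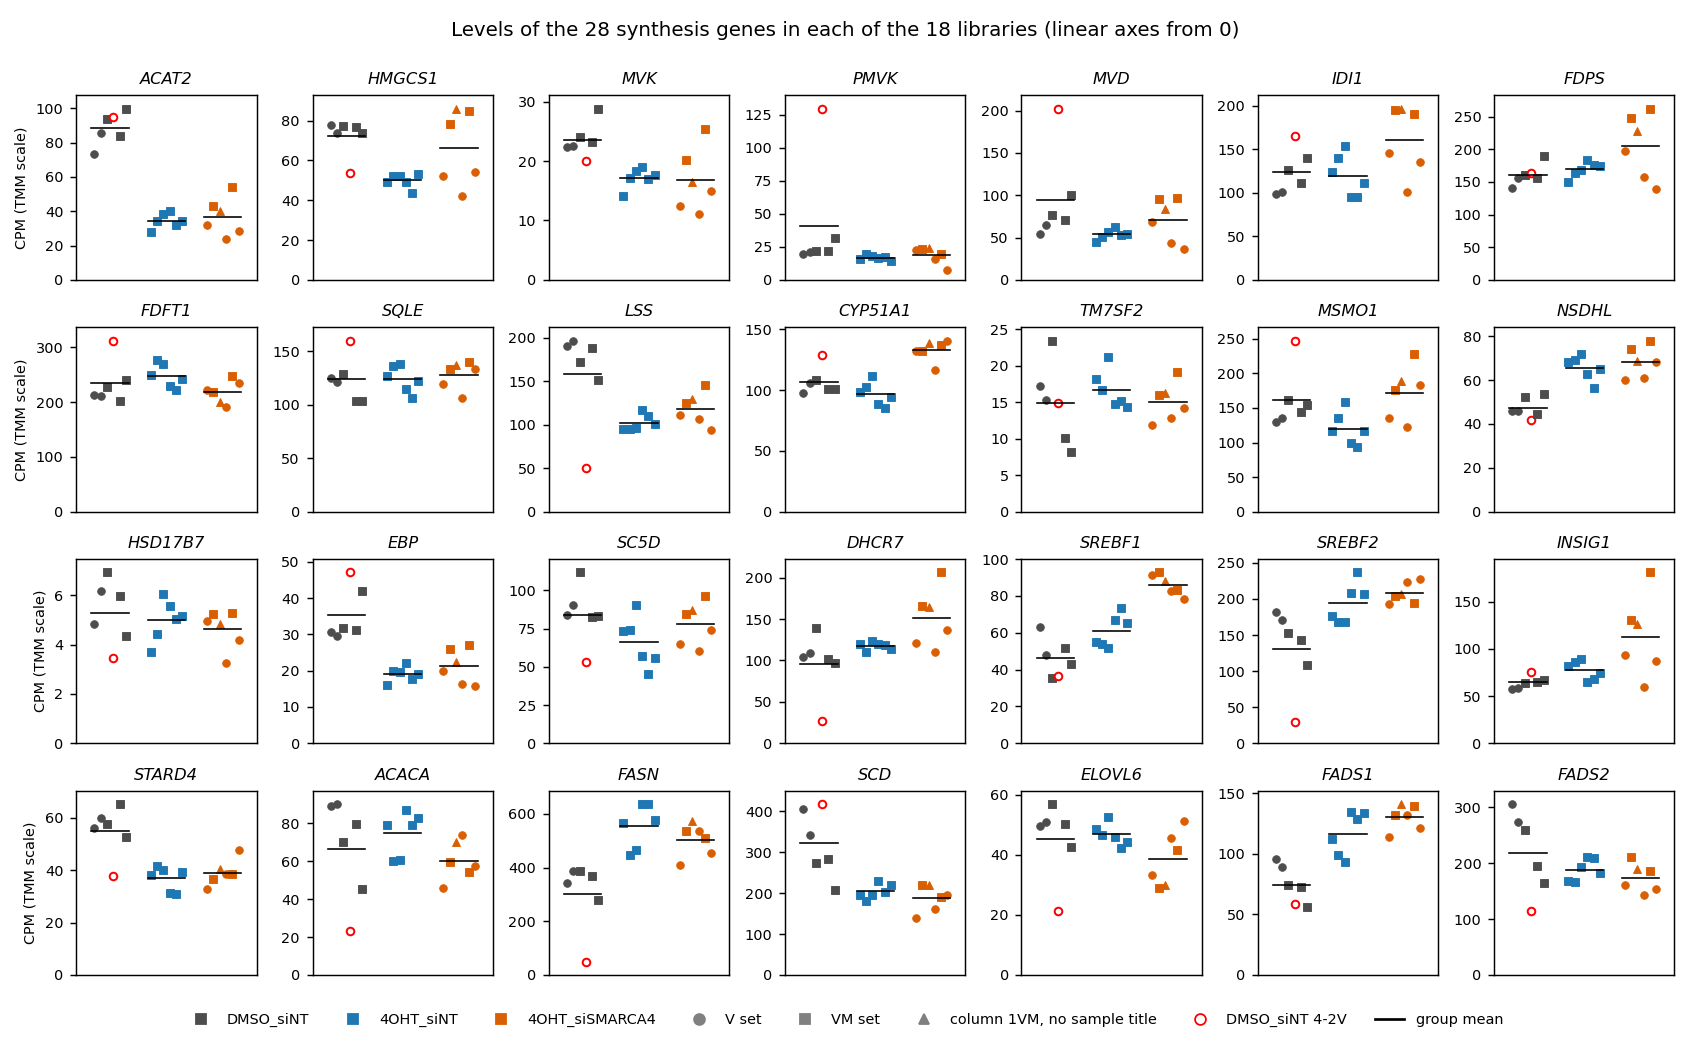
Level of each of the 28 genes (CPM on the TMM scale, linear axes from 0) in the 18 libraries, colored by group, with circles for V sets, squares for VM sets, a triangle for the library whose column reads 1VM without a matching title, and an open red circle for DMSO_siNT 4-2V. Horizontal lines are group means. ACAT2 stood at 28.2 to 40.1 CPM in 4OHT_siNT, below all DMSO_siNT libraries, and the red circle lies far from its group for PMVK, MVD, LSS, DHCR7, SREBF2 and FASN.

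The first comparison asks how the genes differ between senescent and growing cells with control siRNA (4OHT_siNT against DMSO_siNT). Early mevalonate enzymes were lower in senescent cells, led by ACAT2, the enzyme that joins acetyl-CoA units, and FASN and FADS1 were higher. Of the 28 genes, 4 rose and 10 fell at an adjusted p under 0.05 (edgeR quasi-likelihood test, Benjamini-Hochberg over all genes), against 23.9% of all genes tested that rose and 28.9% that fell, so the number called was close to the share over all genes. The median log2 fold change was -0.07 over the 28 genes and -0.05 over all genes.

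In the mevalonate group, 5 of 7 genes fell and none rose. ACAT2 ranged from 73.6 (median 89.8) to 99.7 CPM in DMSO_siNT, and from 28.2 (median 34.2) to 40.1 CPM in 4OHT_siNT. All 4OHT_siNT libraries lay below all DMSO_siNT libraries, with a log2 fold change of -1.36 ± 0.16 (SE, edgeR adjusted p = 7.25e-07) that was called in all 30 fits made. HMGCS1, which makes HMG-CoA, and MVK, which phosphorylates mevalonate, also fell without overlap between the groups, by 0.53 ± 0.15 and 0.45 ± 0.16 on the log2 scale. PMVK, the next kinase, ran from 19.5 (median 21.5) to 129 CPM in DMSO_siNT and from 14.1 (median 16.8) to 19.6 CPM in 4OHT_siNT. The 129 CPM belonged to DMSO_siNT 4-2V, and the remaining 5 libraries ended at 31.5 CPM. With that library the log2 fold change of PMVK was -1.27 ± 0.41 (adjusted p = 0.0146), and without it -0.45 ± 0.21 (adjusted p = 0.0641). MVD, which forms isopentenyl pyrophosphate, stood at -0.82 ± 0.28 with the same library and -0.45 ± 0.21 (adjusted p = 0.0706) without it. Within VM sets alone, which do not hold that library, both genes were called by edgeR. PMVK stood there at -0.57 ± 0.14 (adjusted p = 0.00329) and MVD at -0.62 ± 0.12 (adjusted p = 4.27e-04). IDI1 and FDPS, the last enzymes of this stretch, had log2 fold changes of -0.05 ± 0.17 and 0.07 ± 0.13 and did not pass the test.

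Among the squalene and sterol enzymes, 1 of 11 rose and 3 fell. NSDHL, a sterol dehydrogenase, ranged from 41.8 (median 45.8) to 53.4 CPM in DMSO_siNT and from 56.3 (median 66.6) to 72.1 CPM in 4OHT_siNT. Every senescent library was above every growing one, and the log2 fold change was 0.47 ± 0.09 (adjusted p = 2.99e-04). EBP, the sterol isomerase, ran the other way, from 29.5 (median 31.4) to 47.1 CPM in DMSO_siNT and from 16.0 (median 19.4) to 22.04 CPM in 4OHT_siNT. Its groups did not overlap either, at -0.89 ± 0.15 (adjusted p = 6.83e-05), and the call held in all 30 fits. LSS fell by 0.63 ± 0.22 on the log2 scale, and by 0.80 ± 0.10 without DMSO_siNT 4-2V, where it stood at 49.7 CPM against 151 to 197 CPM in the rest of the group. MSMO1, a sterol demethylating oxidase, stood at -0.43 ± 0.18 on the log2 scale (adjusted p = 0.0463) and, when that library was left out, at -0.27 ± 0.14 (adjusted p = 0.116). The other 7 sterol genes (FDFT1, SQLE, CYP51A1, TM7SF2, HSD17B7, SC5D and DHCR7) lay between -0.35 and 0.29 and did not pass.

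SREBF1 ranged from 35.2 (median 45.5) to 63.3 CPM in DMSO_siNT and from 51.8 (median 60.3) to 73.4 CPM in 4OHT_siNT. It rose by a log2 fold change of 0.40 ± 0.13 (adjusted p = 0.0146), and the groups overlapped. Within 4OHT_siNT its level differed by siRNA number, at 51.8 to 55.1 CPM with siRNA 2 and 65.5 to 73.4 CPM with siRNA 4. With siRNA 2 alone SREBF1 was at 0.15 ± 0.15 and not called (adjusted p = 0.441), and with siRNA 4 alone at 0.68 ± 0.16. DMSO_siNT 4-2V is among the growing libraries of the siRNA 4 fit, and its part in this difference was not tested. SREBF2 ranged from 29.9 (median 148) to 182 CPM in DMSO_siNT and from 168 (median 192) to 237 CPM in 4OHT_siNT. Its lowest value was that of DMSO_siNT 4-2V, the other 5 libraries starting at 108 CPM, and 2 of these overlapped the senescent range. The log2 fold change of SREBF2 was 0.56 ± 0.26 (adjusted p = 0.0766) with this library and 0.37 ± 0.12 (adjusted p = 0.0106) without it. STARD4, a carrier that moves sterol between membranes, fell by 0.57 ± 0.12, and INSIG1 had a log2 fold change of 0.26 ± 0.19 that did not pass.

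Of the fatty acid enzymes, 2 of 6 rose and 1 fell. FASN ran from 48.3 (median 355) to 388 CPM in DMSO_siNT and from 445 (median 571) to 636 CPM in 4OHT_siNT. No value was shared between the groups, with or without the low value of DMSO_siNT 4-2V, and the log2 fold change was 0.88 ± 0.30 (adjusted p = 0.0200) with that library and 0.66 ± 0.12 (adjusted p = 5.20e-05) without it. FADS1, the delta-5 desaturase, ranged from 55.7 (median 73.3) to 96.0 CPM in DMSO_siNT and from 93.3 (median 120) to 134 CPM in 4OHT_siNT. A single DMSO_siNT library, 2-1V, lay above the lowest senescent value, and FADS1 rose by 0.65 ± 0.13 (adjusted p = 4.32e-04). With siRNA 2 alone FADS1 was at 0.24 ± 0.11 and not called (adjusted p = 0.0812), and with siRNA 4 alone at 1.11 ± 0.16. Here too the siRNA 4 fit held DMSO_siNT 4-2V. SCD, which makes monounsaturated fatty acids, ranged from 206 (median 313) to 417 CPM in DMSO_siNT and from 181 (median 199) to 229 CPM in 4OHT_siNT. It fell by 0.66 ± 0.15 (adjusted p = 0.00147), with overlap at the lowest growing library. ACACA, ELOVL6 and FADS2 had log2 fold changes of 0.17 ± 0.23, 0.05 ± 0.18 and -0.22 ± 0.18 and did not pass.

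Without DMSO_siNT 4-2V, 14 of the 28 genes were again called, of which 11 were shared, with 27.9% of all genes higher and 30.3% lower. MSMO1, MVD and PMVK were lost, and FADS2 (lower), SC5D (lower) and SREBF2 (higher) were gained. Within VM sets alone, 3 libraries against 6, all 14 genes were called together with SC5D and SREBF2, against 25.6% of all genes higher and 27.9% lower.

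**Figure D2:**
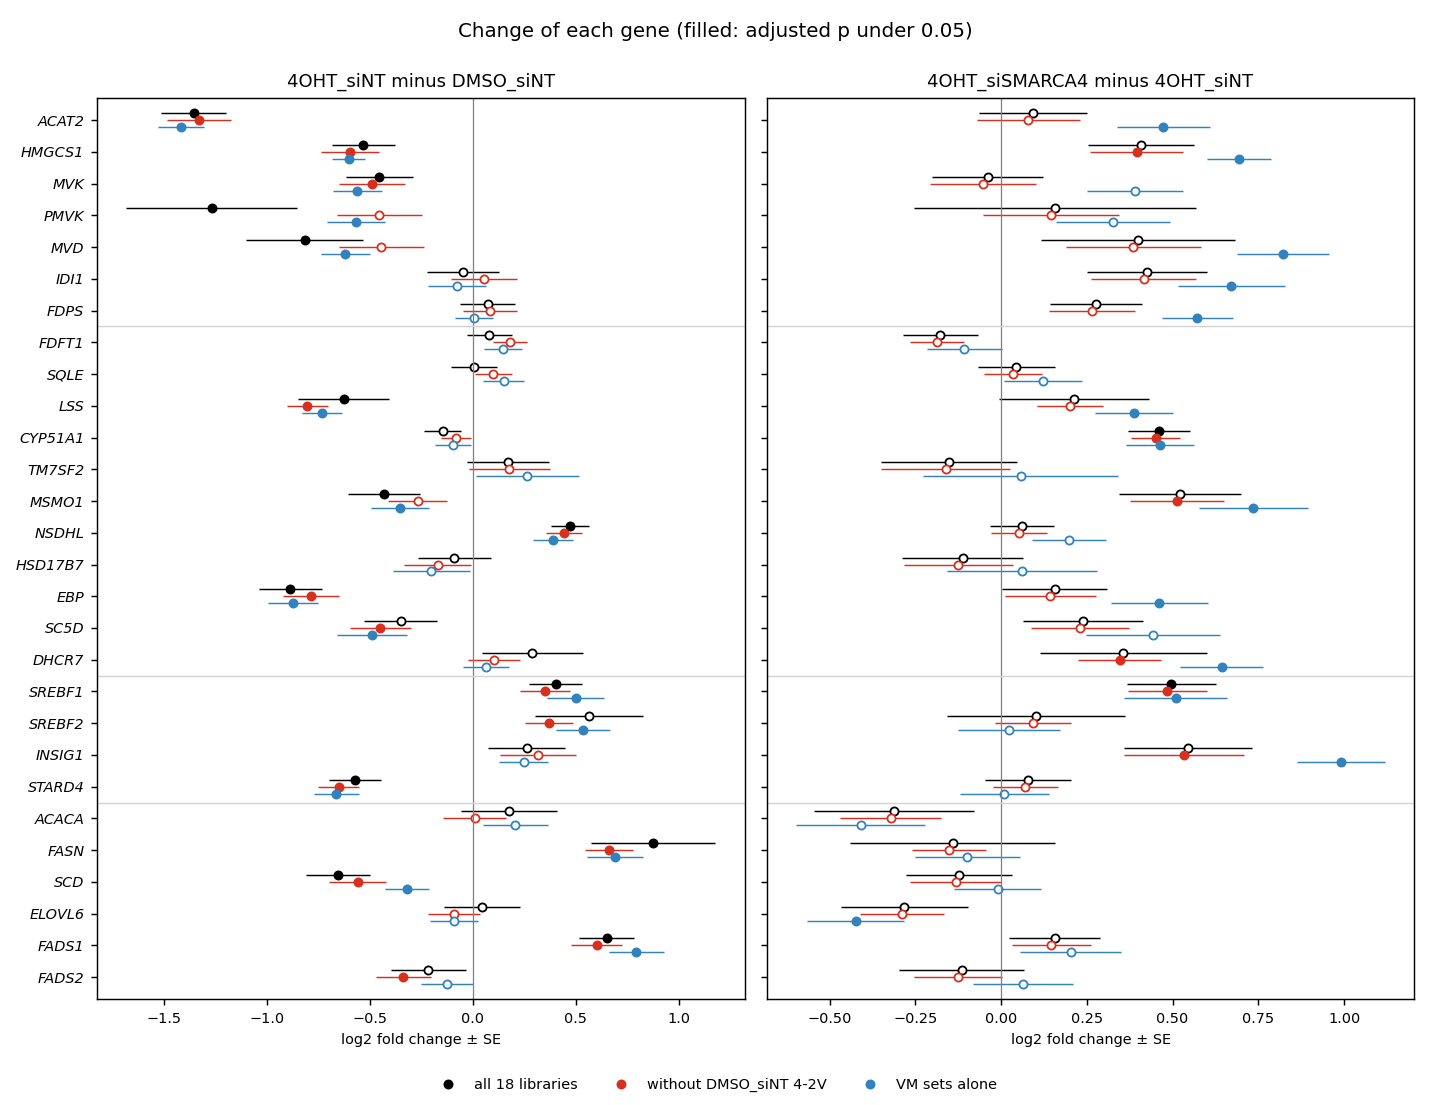
Log2 fold change ± SE of each gene for senescence with control siRNA (left) and for SMARCA4 knockdown in senescent cells (right), with all 18 libraries (black), without DMSO_siNT 4-2V (red) and in VM sets alone (blue). Filled points passed an adjusted p of 0.05. At right, 2 black points are filled (CYP51A1 and SREBF1), against 6 red and 13 blue points.

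SMARCA4 knockdown was then compared with control siRNA in senescent cells (4OHT_siSMARCA4 against 4OHT_siNT). CYP51A1, the lanosterol demethylase, and SREBF1 rose, and edgeR called no gene lower. These were 2 of 28 genes, against 4.99% of all genes tested that rose and 5.65% that fell. At an unadjusted p under 0.05 there were 6 of the 28, close to the share of 24.7% over all genes. DESeq2 called 3 higher (MSMO1 added) and 0 lower, against 5.99% of all genes higher and 6.89% lower. The median log2 fold change was 0.13 over the 28 genes and 0.01 over all genes, and 19 of the 28 values were positive.

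CYP51A1 ranged from 85.2 (median 96.0) to 111 CPM in 4OHT_siNT and from 117 (median 135) to 141 CPM in 4OHT_siSMARCA4. Every knockdown library was above every control library, V and VM alike, with a log2 fold change of 0.46 ± 0.09 (adjusted p = 0.00268). SREBF1 stood at 78.5 (median 85.7) to 92.7 CPM after knockdown, above the whole 4OHT_siNT range of 51.8 to 73.4 CPM, at 0.50 ± 0.13 (adjusted p = 0.0186). Both calls held without DMSO_siNT 4-2V and in VM sets alone. With the set letters as a term in the fit, CYP51A1 was called (0.43 ± 0.11, adjusted p = 0.0269) and SREBF1 was not (0.44 ± 0.17, adjusted p = 0.125). Over 30 fits CYP51A1 was called in 28 and SREBF1 in 23. With siRNA 4 alone, 3 libraries against 3, neither passed, at 0.53 ± 0.16 for CYP51A1 (adjusted p = 0.302) and 0.22 ± 0.16 for SREBF1 (adjusted p = 0.702). That fit called 0.0303% of all genes. It also held DMSO_siNT 4-2V, which entered through the filter, the scaling and the shared estimate of the spread. SREBF2, at 192 (median 206) to 228 CPM after knockdown, overlapped its controls and did not pass, at 0.10 ± 0.26 (adjusted p = 0.858).

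INSIG1 showed the widest spread of the regulators, from 59.5 (median 110) to 181 CPM in 4OHT_siSMARCA4 against 64.8 (median 78.2) to 89.3 CPM in 4OHT_siNT. The 2 VM libraries, at 130 and 181 CPM, and the library whose column reads 1VM, at 127 CPM, were well above all controls, and these are the 3 libraries with VM in their column names. Of the V libraries, 2 stood within or below the control range, at 59.5 and 87.0 CPM, and 1 just above it, at 93.6 CPM. The log2 fold change of INSIG1 was 0.54 ± 0.19 (adjusted p = 0.0694) with all libraries, 0.53 ± 0.17 (adjusted p = 0.0309) without DMSO_siNT 4-2V, and 0.99 ± 0.13 (adjusted p = 1.08e-04) within VM sets. DMSO_siNT 4-2V is in neither arm of this comparison and entered it through the filter, the scaling and the shared estimate of the spread.

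Without DMSO_siNT 4-2V, 6 genes rose and none fell, INSIG1, HMGCS1, MSMO1 and DHCR7 being added to CYP51A1 and SREBF1, against 11.7% of all genes higher and 12.9% lower. Within VM sets alone, 12 of the 28 genes rose and 1 fell, against 8.76% of all genes higher and 12.2% lower. This comparison set 2 knockdown libraries against 6 controls. Its 12 risers were 5 mevalonate enzymes (ACAT2, HMGCS1, MVD, IDI1 and FDPS), 5 sterol enzymes (LSS, CYP51A1, MSMO1, EBP and DHCR7) and the regulators SREBF1 and INSIG1. MVD stood at 95.3 and 96.5 CPM in these 2 libraries against 45.2 to 61.9 CPM in 4OHT_siNT, a log2 fold change of 0.82 ± 0.13 (adjusted p = 6.60e-04). FDPS stood at 247 and 262 CPM against 150 to 183 CPM, at 0.57 ± 0.10 (adjusted p = 0.00142). The gene that fell was ELOVL6 (-0.42 ± 0.14, adjusted p = 0.0448), and no fatty acid enzyme rose. ELOVL6 stood at 29.0 CPM in 2-3VM and 41.7 CPM in 4-2VM, against 42.4 to 52.8 CPM in 4OHT_siNT. The median log2 fold change within VM sets was 0.36 over the 28 genes and -0.01 over all genes.

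Since the knockdown group mixed set letters and its control did not, V and VM libraries were compared inside the groups that held both. In 4OHT_siSMARCA4, with 3 V and 2 VM libraries, the calls depended on the fit. With all labelled libraries none of the 28 genes was called by edgeR, where 0.101% of all genes were called higher in V and 0% lower. At an unadjusted p under 0.05 there were 8 of the 28, against 8.15% of all genes. DESeq2 called 5 lower in V (ACAT2, HMGCS1, MVK, FDPS and INSIG1), against 0.31% of all genes lower and 0.786% higher. Without DMSO_siNT 4-2V, edgeR called 7 genes lower in V and none higher, against 0.478% of all genes lower and 1.14% higher. These were ACAT2, HMGCS1, MVK, MVD, FDPS, DHCR7 and INSIG1, of which 5 are mevalonate enzymes, 1 (DHCR7) is a sterol enzyme and 1 (INSIG1) a regulator. In both fits 24 of the 28 differences were negative.

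HMGCS1 stood at 42.2, 52.2 and 54.3 CPM in the V libraries and at 78.5 and 84.9 CPM in the VM libraries, which did not overlap, a log2 difference of -0.71 ± 0.12 without DMSO_siNT 4-2V (adjusted p = 0.00685). ACAT2 stood at 23.8, 28.6 and 31.7 CPM against 43.02 and 54.1 CPM, at -0.78 ± 0.16 (adjusted p = 0.0171). INSIG1 had the largest difference in size, -0.95 ± 0.17 (adjusted p = 0.0105). CYP51A1 and SREBF1, the genes called in the knockdown comparison, had differences of -0.04 ± 0.12 and -0.05 ± 0.17 between V and VM and did not pass. The median difference was -0.37 over the 28 genes and 0.02 over all genes. SMARCA4 also differed between these libraries, higher in V by 0.61 ± 0.15 on the log2 scale (adjusted p = 0.0479 without DMSO_siNT 4-2V, 0.247 with it), and its part in the differences of these genes was not tested.

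In DMSO_siNT, V and VM libraries gave no call among the 28 genes by edgeR, against 0.324% of all genes, and 2 at an unadjusted p under 0.05, against 16% of all genes. DESeq2 called 1 (SCD), against 3.28% of all genes. Without DMSO_siNT 4-2V edgeR called none of the 28, against 0.862% of all genes, and 6 had an unadjusted p under 0.05, against 13.7%. The differences in the 2 groups were not tested against each other.

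**Figure D3:**
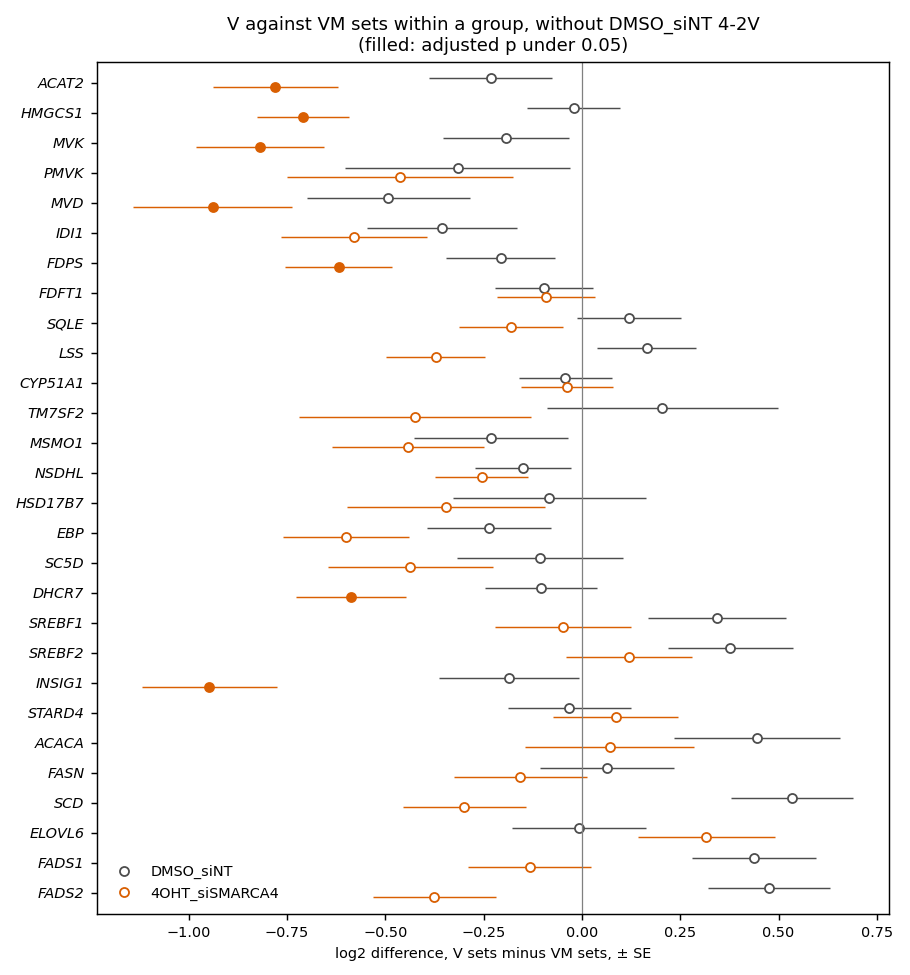
Log2 difference ± SE between V and VM libraries for each gene within 4OHT_siSMARCA4 (orange) and DMSO_siNT (gray), in the fit without DMSO_siNT 4-2V. Filled points passed an adjusted p of 0.05 and are the 7 genes ACAT2, HMGCS1, MVK, MVD, FDPS, DHCR7 and INSIG1 of 4OHT_siSMARCA4, all left of 0. No gray point is filled.

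Whether the knockdown change differed between siRNA 2 and siRNA 4 was tested as an interaction. In 4OHT_siSMARCA4, siRNA 2 had the libraries 2-3V, 2-3VM and the one whose column reads 1VM. For siRNA 4 they were 4-2V, 4-3V and 4-2VM. The siRNA number was thus partly tied to the set letters there, and their parts were not separated in this test. With all libraries none of the 28 genes was called by edgeR, against 0.0146% of all genes, or by DESeq2, against 0.501%. At an unadjusted p under 0.05 there were 2, SREBF1 (0.53 ± 0.24) and ELOVL6 (-0.72 ± 0.30), against 7.28% of all genes. Without DMSO_siNT 4-2V, ELOVL6 was called, with a change that was lower with siRNA 2 by 0.75 ± 0.15 (adjusted p = 0.0302), against 0.73% of all genes. ELOVL6 ranged from 29.0 to 33.5 CPM with siRNA 2 and from 41.7 to 51.5 CPM with siRNA 4 in 4OHT_siSMARCA4, and from 46.6 to 52.8 and from 42.4 to 46.1 CPM in 4OHT_siNT.

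SMARCA4-depleted senescent cells were also set against growing cells (4OHT_siSMARCA4 against DMSO_siNT). This comparison shares its libraries with both others and is given for the levels at its ends. All 4 regulators and carriers were called, with SREBF1, SREBF2 and INSIG1 higher and STARD4 lower. In all, 9 genes rose and 6 fell, against 23.3% of all genes higher and 27.3% lower. Without DMSO_siNT 4-2V, 10 rose and 8 fell, against 28.7% and 30.5%, and 14 of the 15 calls were kept. The median log2 fold change was -0.11 over the 28 genes and -0.04 over all genes.

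SREBF1 did not overlap between these groups, and its log2 fold change was 0.90 ± 0.13 (adjusted p = 1.02e-05). INSIG1 ranged from 57.9 (median 64.5) to 75.5 CPM in DMSO_siNT and overlapped the knockdown range at a single V library, at 0.81 ± 0.19 (adjusted p = 0.00132). FADS1, at 114 (median 132) to 141 CPM after knockdown, was above every growing library, at 0.81 ± 0.13 (adjusted p = 4.54e-05). ACAT2 remained below all growing libraries, at 23.8 (median 35.9) to 54.1 CPM and -1.26 ± 0.16 (adjusted p = 1.53e-06). SCD, at 139 (median 192) to 220 CPM, fell by 0.78 ± 0.15, and PMVK, at 7.26 (median 21.0) to 23.9 CPM, fell by 1.11 ± 0.41 (adjusted p = 0.0302) but had an adjusted p of 0.205 without DMSO_siNT 4-2V. The other genes called were CYP51A1, NSDHL, DHCR7, FDPS and FASN (0.31 to 0.73, higher), SREBF2 (0.67 ± 0.26) and MVK, EBP and STARD4 (-0.73 to -0.49, lower).

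Summed by role, mevalonate genes held 604 ± 125 CPM (SD, n = 6) in DMSO_siNT, 461 ± 29.0 CPM in 4OHT_siNT and 575 ± 148 CPM in 4OHT_siSMARCA4, where the single libraries spread from 395 to 732 CPM. The 4 regulators and carriers held 297 ± 64.8, 370 ± 24.6 and 447 ± 35.5 CPM, with the knockdown libraries from 404 to 498 CPM and the 4OHT_siNT libraries from 349 to 409 CPM. Squalene and sterol genes held 1069 ± 52.6, 981 ± 82.6 and 1109 ± 146 CPM, and fatty acid genes 1028 ± 242, 1185 ± 135 and 1093 ± 116 CPM, with groups that overlapped. A sum follows its most abundant genes, and no test was made on it.

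**Figure D4:**
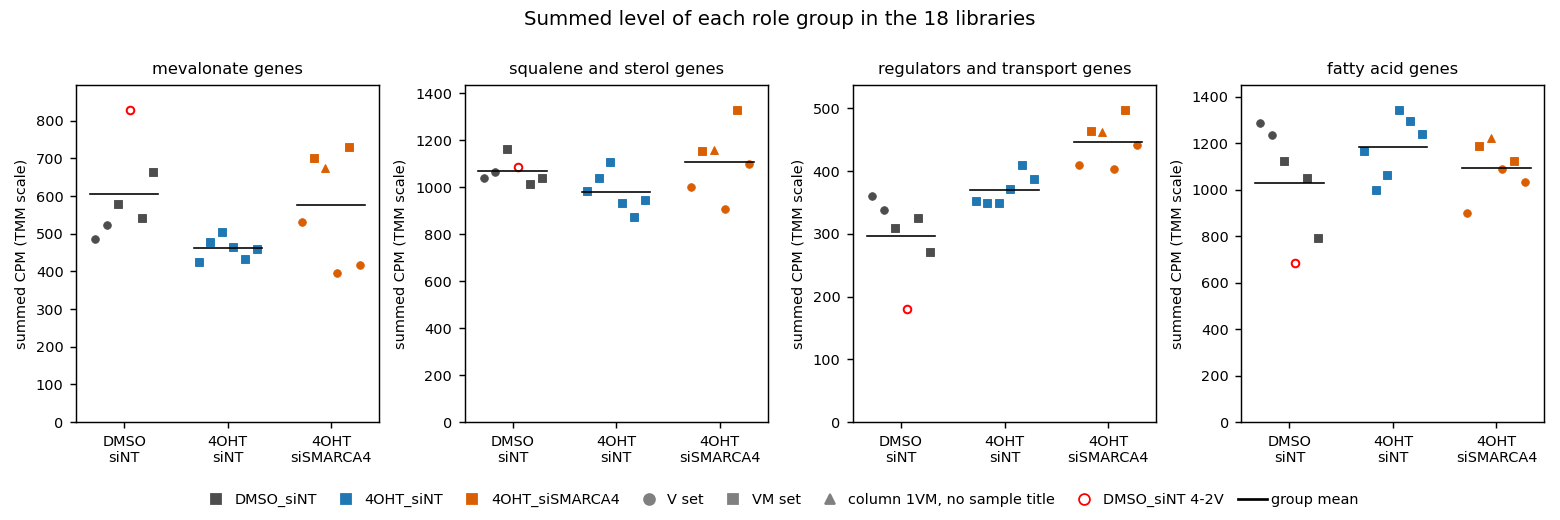
Summed level (CPM on the TMM scale, axes from 0) of the genes of each role in the 18 libraries, with circles for V sets, squares for VM sets, a triangle for the library whose column reads 1VM without a matching title, an open red circle for DMSO_siNT 4-2V and lines at group means. Mevalonate genes run from 395 to 732 CPM in 4OHT_siSMARCA4, with the V libraries below the VM libraries.

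A further 36 genes of sterol uptake, efflux, storage and control and of fatty acid handling were counted beside the 28, of which 35 were tested. In senescent cells with control siRNA 12 of these rose and 9 fell, and after SMARCA4 knockdown 7 rose and 3 fell, with the same shares of all genes as above. NPC1, which releases cholesterol from lysosomes, ran from 5.26 to 34.8 CPM in DMSO_siNT (from 13.6 CPM without 4-2V) and from 106 to 130 CPM in 4OHT_siNT, a log2 fold change of 2.6 ± 0.28 (adjusted p = 2.75e-07). ABCA1, the cholesterol efflux pump of the cell surface, rose from 19.6 to 49.98 CPM in DMSO_siNT to 152 to 208 CPM in 4OHT_siNT and 259 to 377 CPM in 4OHT_siSMARCA4, with no overlap at either step. Its log2 fold changes were 2.34 ± 0.20 (adjusted p = 1.40e-08) with senescence and 0.87 ± 0.19 (adjusted p = 0.00676) with knockdown. DGAT2, which makes triglyceride, was low throughout and went up and then down, at 0.641 to 1.86 CPM, 6.56 to 14.0 CPM and 2.99 to 5.78 CPM in the 3 groups, with log2 fold changes of 2.96 ± 0.26 and -1.11 ± 0.23 (adjusted p = 0.00366 for the latter). These calls all held without DMSO_siNT 4-2V.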

How the data were processed

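RNA was measured by strand-specific, single-end sequencing of polyA libraries. The deposited table held raw counts per gene, made by the authors from reads aligned to hg38 (STAR 2.7.8a and DESeq2 1.36.0 are named in the submitters' processing notes). The counting program, its annotation and its use of strand are not given in the sources used here. The 36 columns were 2 lanes of each of 18 libraries and were summed, giving 9657309 to 18039313 counts a library. Of 29 labelled samples, 17 matched a library by title, 1 library matched its group only, and the other samples are not analysed here.

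Counts were filtered (filterByExpr, minimum count 10), scaled by TMM and fitted with edgeR 4.0.16 (R 4.3.3) by the quasi-likelihood test, with all 18 libraries and 3 groups in 1 fit. P-values were adjusted by Benjamini-Hochberg over all 13136 genes, and genes were called at 0.05. The SE is the log2 fold change divided by the square root of F. The test was checked on simulated counts. DESeq2 1.42.0, other scalings and filters, sets, siRNAs and left-out libraries were alternatives. Differences between V and VM sets, and between siRNAs, came from separate fits with these as terms. No 2 libraries of a group agreed within sampling noise.

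The members, the other pathway genes and the tests were chosen with earlier results of these data known. Full values are given for ACAT2, PMVK, EBP, NSDHL, CYP51A1, SREBF1, SREBF2, INSIG1, FASN, FADS1 and SCD, and for a few other pathway genes; the single-library values of HMGCS1, MVD, FDPS and ELOVL6 were added after seeing the results.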

Additional observations from a re-analysis of the deposited data

Results flagged for a closer look

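In each group of 6 libraries, the gap between the highest or lowest library and its nearest neighbour, divided by the whole range, was compared with Dixon's critical value for 6 samples. Of 84 sets (28 genes in 3 groups) 11 exceeded it, where chance would give about 4.2. DMSO_siNT 4-2V gave 8 of the 11. It was the lowest library of its group for HMGCS1 (gap 0.855 of the range), LSS (0.808), DHCR7 (0.782), SREBF2 (0.71), FASN (0.841) and ELOVL6 (0.709), and the highest for PMVK (0.747) and MSMO1 (0.658). The other 3 were the lowest library of their groups: MVK in 4OHT_siNT 2-1VM (0.651, at 14.1 CPM), PMVK in 4OHT_siSMARCA4 4-3V (0.656, at 7.26 CPM) and CYP51A1 in 4OHT_siSMARCA4 4-2V (0.669, at 117 CPM).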

How the results depend on the processing

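With senescence, 14 genes were called, 8 when set labels entered as a replicate block, 7 with siRNA 4 alone, 2 when a change over 2-fold was also required, and 12 to 15 when each library was left out. Over all genes the share called moved as well, from 52.8% to 31.2% with the block and 35.6% with siRNA 4 alone. Over 2-fold, 2822 of 13136 genes were called. With knockdown, 2 genes were called, 13 in VM sets alone, 14 in VM sets with the untitled 1VM library, 4 with only the groups compared, 0 with the replicate block, 12 with siRNA 2 alone, 0 with siRNA 4 alone and 0 over 2-fold. Of all genes, 10.6% were called, 1.62% with the block, 25.7% with siRNA 2 alone and 0.0303% with siRNA 4 alone. The fits with siRNA 4 alone held DMSO_siNT 4-2V, and in the knockdown group siRNA number was partly tied to set letters. With only the groups compared, 1685 of 12673 genes were higher and 1720 lower. In VM sets with the untitled 1VM library, 1825 of 13384 genes were higher and 2239 lower. Over 2-fold, 461 of 13136 genes were called. The block lost both CYP51A1 and SREBF1. Leaving out each library gave 1 to 6 (1 without 4OHT_siNT 2-1VM, 4OHT_siNT 2-2VM or 4OHT_siSMARCA4 2-3VM, and 6 without 4OHT_siSMARCA4 4-2V or DMSO_siNT 4-2V). Without 4OHT_siSMARCA4 4-2V, 694 of 13295 genes were higher and 892 lower. Between knockdown and growing cells, 15 genes were called, 7 with the replicate block, 7 with siRNA 4 alone, 2 over 2-fold, and 11 to 18 with a library left out, against 50.5% of all genes, 33.7% with the block and 31.2% with siRNA 4 alone. Of all genes, 2820 of 13136 were called over 2-fold in this comparison. For V against VM in DMSO_siNT, 0 were called, 1 by DESeq2 and 0 to 1 with a library left out (1 without DMSO_siNT 2-2V). In 4OHT_siSMARCA4, 0 were called, 5 by DESeq2 and 0 to 7 with a library left out (2 without 4OHT_siSMARCA4 2-3V, 7 without DMSO_siNT 4-2V). The siRNA difference gave 0, and 1 without DMSO_siNT 4-2V. With siRNA 2 alone, IDI1 turned to 0.37 with senescence (adjusted p = 0.0299, edgeR) and PMVK to 0.17 between knockdown and growing cells (adjusted p = 0.178). The cause was not tested for any of these. Over 29 alternatives the median of the 28 genes lay from -0.16 to -0.02 with senescence, 0.04 to 0.36 with knockdown and -0.14 to 0.15 between knockdown and growing cells. Libraries of different groups with the same set label deviated together weakly if at all (15 pairs, r from -0.32 to 0.35, median 0.066, 5 over 0.1). Those with different labels gave r from -0.32 to 0.29 (81 pairs, median -3.3e-05, 25 over 0.1). The difference between these kinds of pair was not tested, and the label was not taken as a pairing. VM sets with the untitled 1VM library, the set letters as a term, and the V against VM and siRNA fits without DMSO_siNT 4-2V were chosen after seeing the data.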
